A study of Rattus norvegicus with 311 samples.

Results

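Genes that fold proteins in the endoplasmic reticulum (ER), or that respond when unfolded proteins collect there, were followed in cultured rat liver cells through 4 compounds, 3 doses and 3 days. The 10 genes were chosen by name. Each was looked up in the count table by the name before its probe number, and 7 of 10 have a row, with 1 probe each of 22253 in the table: Hspa5, Hsp90b1, Hyou1, Calr, Creld2, Herpud1 and Xbp1. Pdia4, Dnajb9 and Sdf2l1 are not analysed here, as no row carries their names.

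Secreted and membrane proteins are folded in the ER, and hepatocytes, which secrete most plasma proteins, carry a large load of them. When folding falls behind, sensors in the ER membrane start the unfolded protein response. ATF6 and the spliced form of XBP1 then raise chaperones and degradation factors, while PERK slows protein synthesis and raises ATF4 and its targets. Hspa5 encodes BiP, the Hsp70 chaperone of the ER that also holds the sensors inactive, and Hsp90b1 encodes Grp94, its Hsp90 chaperone. Hyou1 encodes Grp170, which helps BiP exchange nucleotide, Calr encodes calreticulin, a calcium-binding lectin chaperone, and Creld2 encodes a cysteine-rich ER protein induced by ER stress. Herpud1 encodes a membrane protein of ER-associated degradation, and Xbp1 encodes the transcription factor whose mRNA the sensor IRE1 splices. The place of the Xbp1 probe in the transcript is not given in the sources used here, so its counts do not separate the spliced form.

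The cells were primary hepatocytes of male Sprague Dawley rats on collagen-coated plates, either with non-parenchymal liver cells (co-culture, 155 libraries) or alone (monoculture, 156 libraries). They received gemfibrozil at 10, 100 or 1000 µM, phenobarbital at 0.1, 1 or 10 mM, ketoconazole at 1, 10 or 30 µM, GW7647 at 0.01, 0.1 or 1 µM, or vehicle, for 24 hours before sampling on day 1, 3 or 7 after plating. Gemfibrozil is a fibrate and GW7647 a synthetic agonist of the nuclear receptor PPAR-alpha, phenobarbital activates the receptor CAR, and ketoconazole is an azole antifungal. TempO-Seq counted detector oligonucleotides ligated on target RNA, and values are CPM, counts per 1000000 counts of a library after TMM scaling. Of 78 groups, 65 held 4 libraries, 7 held 3 and 6 held 5. The labels speak of biological replicates and name no separate animals, so p-values measure the spread between these wells.

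The shallowest library had 412414 counts, the median one 6054414 and the deepest 12272575. The lowest count of a member in any library was 9, for Hyou1. The number that opens the last part of each library name was read as a plate and taken as the replicate. That it stands for a plate is an inference from the names. The 33 monoculture phenobarbital libraries carry ketoconazole as compound label and were grouped by their description, and so were 3 co-culture GW7647 libraries of day 3 whose dose labels differ. Plate 9 stood apart: its 9 libraries were day 3 wells treated with GW7647 or gemfibrozil, and it has none of vehicle. In its 7 libraries below the highest gemfibrozil dose, Calr ran from 336.2 to 930.9 CPM with a median of 614.1, against 56.0 to 327.6 CPM with a median of 180.5 in 38 such libraries of the other plates. Xbp1 ran from 6.29 to 10.5 CPM there, against 16.4 to 86.5 CPM. Medians were also higher there for Hspa5 (60.8 against 20.5 CPM), Hsp90b1 (750.5 against 387.4 CPM) and Hyou1 (50.0 against 27.7 CPM). They were lower for Herpud1 (274.7 against 576.4 CPM) and Creld2 (33.1 against 78.6 CPM). Results of day 3 with gemfibrozil are therefore given with and without plate 9. Levels of different genes are not compared, since probes differ in efficiency, and comparisons that use the same vehicle libraries are not independent. In bulk libraries, fewer cells of a type and less RNA per cell cannot be told apart.

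The promoters of the 7 genes are shown because all 7 of 7 hold a known ER stress response element within 250 bases before the start, while few promoters do. The sequences are from RefSeq on the build GRCr8, read 5′ to 3′ on the gene's strand, and each of the 7 genes matched an entry by symbol, Hyou1 the first of 2. Capitals mark the ER stress response element (ERSE, letters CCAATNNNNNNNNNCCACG on either strand) or its short form (ERSE-II, letters ATTGGNCCACG on either strand). In Herpud1 capitals also mark the C/EBP-ATF motif (letters TTGCATCA). For Hspa5, Hsp90b1 and Herpud1 all 250 bases are printed, and for the others the stretch with the motif and 20 bases on either side, as far as the window reaches.
Hspa5 (chr3:38452766-38453015, plus strand): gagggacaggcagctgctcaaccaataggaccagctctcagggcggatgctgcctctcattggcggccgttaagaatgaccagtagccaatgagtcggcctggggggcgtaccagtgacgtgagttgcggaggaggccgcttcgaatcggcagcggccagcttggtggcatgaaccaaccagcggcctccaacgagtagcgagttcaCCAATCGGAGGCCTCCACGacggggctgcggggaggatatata
Hsp90b1 (chr7:23012294-23012543, minus strand): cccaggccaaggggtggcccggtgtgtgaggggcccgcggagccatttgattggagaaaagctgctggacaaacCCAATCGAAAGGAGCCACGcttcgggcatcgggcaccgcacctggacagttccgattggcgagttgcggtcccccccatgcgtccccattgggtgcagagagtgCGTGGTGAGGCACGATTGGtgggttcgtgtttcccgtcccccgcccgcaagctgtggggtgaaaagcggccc
Herpud1 (chr19:10614708-10614957, minus strand): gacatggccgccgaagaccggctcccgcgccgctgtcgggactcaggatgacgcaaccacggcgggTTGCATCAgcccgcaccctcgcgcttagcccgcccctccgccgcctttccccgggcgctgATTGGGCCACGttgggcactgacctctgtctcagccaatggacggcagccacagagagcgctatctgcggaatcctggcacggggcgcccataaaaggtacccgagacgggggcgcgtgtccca
Xbp1 (chr14:84604538-84604596, plus strand): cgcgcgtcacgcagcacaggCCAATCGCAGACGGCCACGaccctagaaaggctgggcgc
Calr (chr19:40213117-40213173, plus strand): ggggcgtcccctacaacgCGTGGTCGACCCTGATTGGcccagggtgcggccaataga
Creld2 (chr7:121789219-121789277, plus strand): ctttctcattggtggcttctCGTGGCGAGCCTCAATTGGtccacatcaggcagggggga
Hyou1 (chr8:53602674-53602824, plus strand): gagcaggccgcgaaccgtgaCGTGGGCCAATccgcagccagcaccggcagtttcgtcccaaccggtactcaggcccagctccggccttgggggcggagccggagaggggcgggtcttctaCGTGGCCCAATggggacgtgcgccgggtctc

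The ERSE letters were found in 22 of 33465 promoters (0.0657%), 5 of them in the genes followed here. In Hspa5 they lie 43 to 25 bases before the start and in Xbp1 65 to 47 bases before it, both on the gene's own strand. Hsp90b1 holds them 176 to 158 bases before the start and, on the other strand, 72 to 54 bases before it. Calr (232 to 214 bases before the start) and Creld2 (145 to 127 bases) hold them on the other strand. The ERSE-II letters were found in 14 promoters (0.0418%), among them Herpud1, 124 to 114 bases before the start, and Hyou1, which holds them at 188 to 178 and at 88 to 78 bases on the other strand. The C/EBP-ATF letters were found in 232 promoters (0.693%), among the 7 genes in Herpud1, 184 to 177 bases before the start. These matches describe the sequence and are no evidence of binding.

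Hspa5 rose with the highest dose of gemfibrozil, of phenobarbital and, in 1 group, of ketoconazole. Of the other members, Herpud1, Hyou1, Creld2, Calr and Hsp90b1 were called higher in 1 to 4 comparisons each, and Xbp1 in none. Each compound, dose, day and culture was compared with the vehicle libraries of the same day and culture by edgeR's quasi-likelihood test, with Benjamini-Hochberg adjustment over all probes and a threshold of 0.05, which gave 504 tests of members. Of these, 19 were called higher and 0 lower, and all 19 were at a highest dose. With plate as a block, which compares libraries of the same plate, 35 were called higher and 0 lower. Gemfibrozil accounted for 12 calls (18 with the block), phenobarbital for 6 (15), ketoconazole for 1 (2) and GW7647 for 0 (0). Of all tests of all probes at the highest doses, 0.689% were called higher, and 1.97% with the block.

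**Figure D1:**
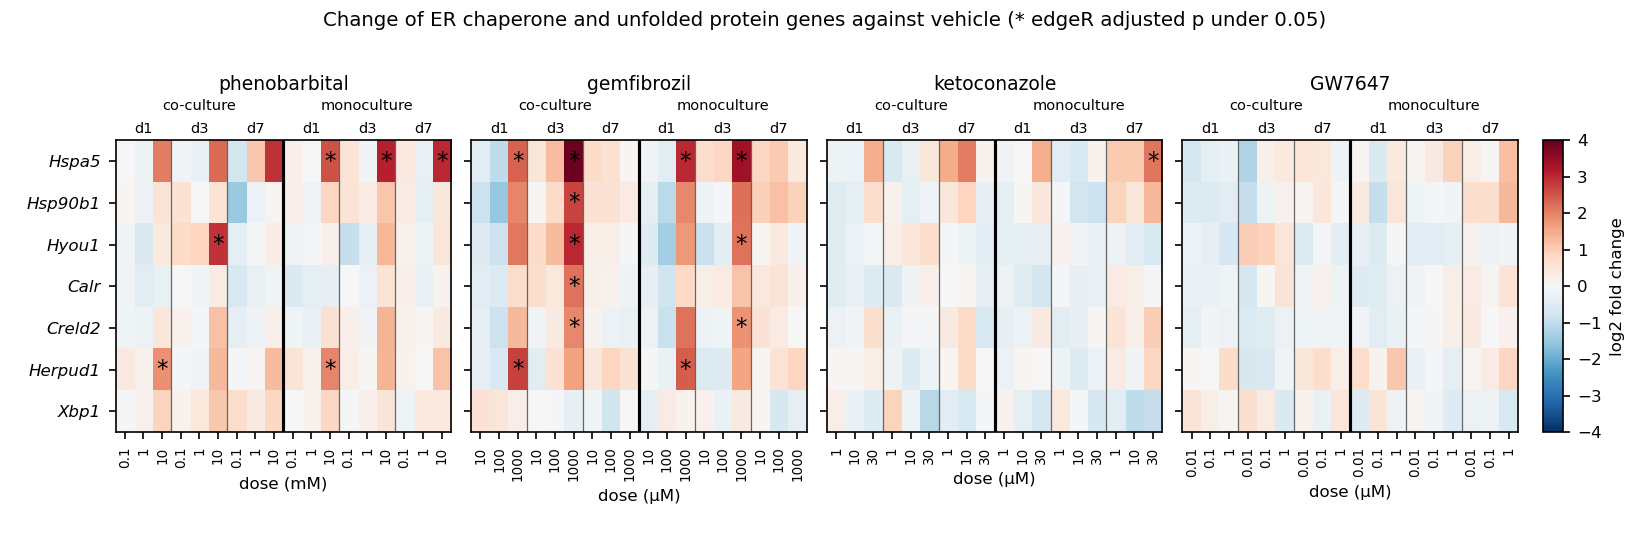
Heat map of the log2 fold change against vehicle of each of the 7 genes (rows) for each compound, with columns ordered by culture, day and dose; a star marks an edgeR adjusted p under 0.05. All 19 stars lie in columns of a highest dose, and most of them belong to Hspa5 and Herpud1 or to gemfibrozil on day 3.

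With 1000 µM gemfibrozil on day 1, the chaperone Hspa5 and the degradation factor Herpud1 rose in both cultures. Hspa5 was at 358.3, 50.4, 241.1 and 26.8 CPM in co-culture on plates 1, 3, 5 and 7, against 38.5, 28.9, 21.5 and 46.1 CPM in vehicle. Plates 1 and 5 were far above every vehicle library, and plate 7 lay among them. The fitted change was 2.34 ± 0.68 (log2, SE; adjusted p = 0.0452). In monoculture the same plates were high, with 535.4, 30.2, 210.6 and 46.3 CPM, against 37.6, 12.4, 19.9 and 36.2 CPM in vehicle, a change of 3.01 ± 0.70 (adjusted p = 0.00841).

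Herpud1 was at 6148, 1192, 6312 and 441.5 CPM with gemfibrozil in co-culture on day 1, against 625.1, 555.2, 332.5 and 615.5 CPM in vehicle, a change of 2.75 ± 0.53 (adjusted p = 0.00236). Plates 1, 3 and 5 were above all vehicle libraries and plate 7 was not. Monoculture had 4333, 1197, 3928 and 662.8 CPM, against 482.9, 503.1, 380.0 and 565.6 CPM in vehicle, and these groups did not overlap (2.43 ± 0.52, adjusted p = 0.00492). Of all probes tested, 1.22% were called higher in co-culture and 1.62% in monoculture, beside 2 of 7 members in each.

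The other chaperones were high on the same plates on day 1 and did not pass edgeR's test without the block. DESeq2 called Hyou1 in co-culture (adjusted p = 0.0151) and monoculture (adjusted p = 0.0433) and Creld2 in monoculture (adjusted p = 0.00962). Hsp90b1 reached 7667 and 4613 CPM in co-culture on plates 1 and 5 but was at 133.2 and 539.8 CPM on plates 3 and 7, against 643.8 to 1086 CPM in vehicle (1.96 ± 0.81, adjusted p = 0.159). Hyou1 was at 636.8, 46.1, 885.0 and 109.3 CPM, against 73.9 to 149.1 CPM in vehicle (2.10 ± 0.67, adjusted p = 0.0684), and it was called with the block (adjusted p = 0.0183). Creld2 was called with the block in both cultures (adjusted p = 0.0293 in co-culture and 0.000613 in monoculture, where its highest library had 1877 CPM), against 0.252 and 0.0569 without it. Calr changed by 0.69 ± 0.38 and 0.79 ± 0.38 in co-culture and monoculture, with adjusted p of 0.293 and 0.25. Xbp1 stood apart from the others, at 33.7 to 69.3 CPM in co-culture, against 27.8 to 46.0 CPM in vehicle (0.24 ± 0.33, adjusted p = 0.726).

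The day 1 calls with gemfibrozil needed both high plates. Without plate 1 or without plate 5 none of the 4 was called, with adjusted p from 0.162 to 0.368, and Hspa5 in co-culture was also lost without plate 3 (adjusted p = 0.06). The median change of the 7 genes was 1.96 in co-culture and 1.91 in monoculture on the log2 scale, beside 0.11 and 0.10 over all probes tested.

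On day 3 gemfibrozil at 1000 µM raised 5 of 7 members in co-culture and 3 of 7 in monoculture, where 0.603% and 0.461% of all probes were called higher. Hspa5 was at 251.9, 304.5, 15.3 and 701.6 CPM in co-culture on plates 1, 5, 7 and 9, against 14.9, 15.9, 27.6 and 27.4 CPM in vehicle on plates 1, 3, 5 and 7. Only plate 7 of the treated libraries lay within the vehicle range, and the change was 3.93 ± 0.81 (adjusted p = 0.0101). In monoculture it was at 179.7, 57.8, 182.7, 23.2 and 511.1 CPM on plates 1, 3, 5, 7 and 9, against 23.3, 13.2, 17.4 and 19.8 CPM in vehicle (3.38 ± 0.77, adjusted p = 0.0147). Plate 9 had the highest value in both cultures, and without it the changes were 3.14 (adjusted p = 0.0247) and 2.58 (adjusted p = 0.0426). The 7 libraries of plate 9 below the highest gemfibrozil dose had 54.8 to 84.5 CPM, above the vehicle libraries of the other plates.

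In co-culture on day 3, the treated and vehicle libraries of Hyou1 did not overlap. Hyou1 was at 71.1, 143.9, 34.0 and 356.8 CPM with gemfibrozil, against 21.5, 26.1, 12.1 and 18.4 CPM in vehicle (3.00 ± 0.61, adjusted p = 0.0101). The share of all probes without overlap was not computed for this or any other comparison. The vehicle libraries of day 3 were themselves the lowest of the 3 days for Hyou1. Monoculture had 184.2, 64.8, 376.9, 54.3 and 381.6 CPM, against 3.67, 58.9, 54.2 and 70.1 CPM in vehicle (2.18 ± 0.57, adjusted p = 0.0391), where the first vehicle library, on plate 1, rests on 9 counts. Without plate 9 the changes were 2.08 (adjusted p = 0.0899) and 1.84 (adjusted p = 0.0753), and neither was called. The 7 libraries of plate 9 below the highest gemfibrozil dose had 42.7 to 60.6 CPM of Hyou1.

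Creld2 was at 544.4, 495.9, 91.3 and 175.9 CPM in co-culture on day 3 with gemfibrozil, against 119.9, 83.2, 76.8 and 66.7 CPM in vehicle (1.93 ± 0.46, adjusted p = 0.0248). Monoculture had 519.0, 200.1, 334.4, 101.2 and 217.0 CPM, against 81.2, 71.1, 76.3 and 88.1 CPM in vehicle, without overlap (1.80 ± 0.45, adjusted p = 0.0255). It kept its call without plate 9 in co-culture (2.12, adjusted p = 0.0216) and in monoculture (1.85, adjusted p = 0.0314). Hsp90b1 was at 3195, 3549, 396.2 and 4949 CPM in co-culture, against 741.0, 390.1, 381.2 and 411.8 CPM in vehicle (2.69 ± 0.65, adjusted p = 0.0265). Its monoculture change of 2.21 ± 0.62 missed the threshold (adjusted p = 0.0575) and was called with the block (adjusted p = 0.0261).

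Calr rested most on plate 9. In co-culture it was at 596.7, 737.0, 201.9 and 2223 CPM with gemfibrozil, against 309.2, 189.6, 188.3 and 184.0 CPM in vehicle (2.16 ± 0.58, adjusted p = 0.0455), and without plate 9 the change was 1.23 (adjusted p = 0.189). Hsp90b1 in co-culture also lost its call without plate 9 (2.30, adjusted p = 0.105). In monoculture Calr changed by 1.15 ± 0.55 (adjusted p = 0.247). Herpud1 reached 4719 CPM in co-culture and 4074 CPM in monoculture on plate 1 but missed the threshold with edgeR (1.61 ± 0.54 and 1.59 ± 0.52, adjusted p = 0.0907 and 0.106), and was called with the block (adjusted p = 0.00572 and 0.00355) and by DESeq2 (adjusted p = 0.012 and 0.0119). On plate 9 Herpud1 was at 1245 and 1815 CPM, against 563.2 to 1100 CPM in co-culture vehicle and 670.3 to 1220 CPM in monoculture vehicle. These vehicle wells are of other plates, and the 7 libraries of plate 9 below the highest gemfibrozil dose had 236.3 to 422.3 CPM. Xbp1 changed by -0.32 ± 0.52 and 0.37 ± 0.50 and was not called.

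In the fit with the block, the level of plate 9 is set by its wells of gemfibrozil and GW7647, as it has none of vehicle. The change of Hspa5 on day 3 was then 3.05 in co-culture (adjusted p = 0.00336) and 2.58 in monoculture (adjusted p = 0.00524). Without plate 5 none of the 8 calls of day 3 was kept (adjusted p from 0.15 to 0.493). Without plate 1 or without plate 3, 1 of 8 was kept, Hyou1 in co-culture. The median change of the 7 genes was 2.16 in co-culture and 1.80 in monoculture, beside 0.19 and 0.30 over all probes.

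On day 7 no member was called with 1000 µM gemfibrozil in either culture by edgeR, with or without the block, or by DESeq2. None of these 14 tests had an unadjusted p under 0.05, and of all probes 0% were called higher. Hspa5 was at 12.4, 19.5 and 8.82 CPM in co-culture, against 8.52 to 20.5 CPM in vehicle (0.08 ± 0.70, adjusted p = 1). The monoculture wells had 3.04 to 18.5 CPM, against 8.63 to 13.3 CPM in vehicle (0.38 ± 0.65, adjusted p = 1). Whether the response to gemfibrozil differed between days was tested directly at the highest dose. Of 28 such tests of members 0 were called by edgeR or DESeq2 and 5 had an unadjusted p under 0.05, among them Hspa5 in monoculture, whose response on day 7 minus that on day 1 was -2.49 ± 1.11 (unadjusted p = 0.0268, adjusted p = 1). A lower response on day 7 than on day 1 was therefore not established.

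**Figure D2:**
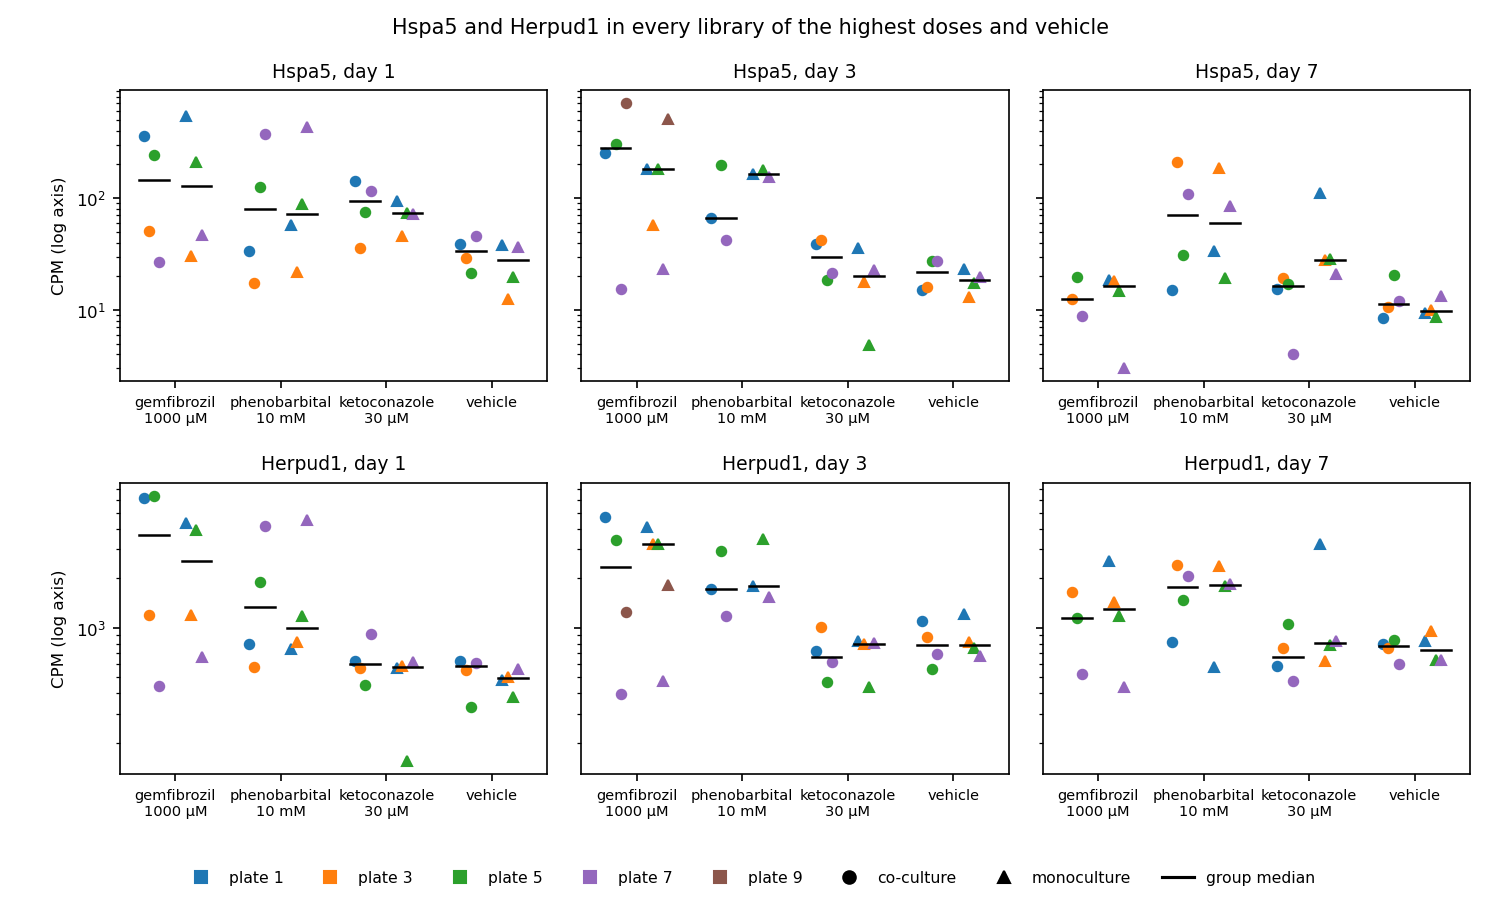
Hspa5 (upper row) and Herpud1 (lower row) in every library of the highest doses and of vehicle on days 1, 3 and 7, in CPM on a log axis, coloured by plate, with circles for co-culture, triangles for monoculture and bars at medians. With gemfibrozil on day 1 the high Hspa5 libraries are those of plates 1 and 5 in both cultures, and on day 7 the gemfibrozil libraries lie near those of vehicle.

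Phenobarbital at 10 mM gave edgeR calls for Hspa5 and Herpud1 on day 1 and for Hspa5 or Hyou1 later. Herpud1 changed by 1.15 to 1.96 over the 6 comparisons, each with an unadjusted p under 0.05. Of these, 2 were called (4 with the block). Its medians on days 3 and 7 were 1724 to 1831 CPM, above every vehicle library. Of 28 tests of members for a difference of this response between days 0 were called, so a Herpud1 rise confined to day 1 was not shown. In monoculture on day 1 Hspa5 was at 57.5, 21.6, 87.8 and 432.9 CPM on plates 1, 3, 5 and 7, against 37.6, 12.4, 19.9 and 36.2 CPM in vehicle (2.54 ± 0.68, adjusted p = 0.0165). Herpud1 was at 747.0, 824.4, 1185 and 4542 CPM, against 380.0 to 565.6 CPM in vehicle, without overlap (1.96 ± 0.52, adjusted p = 0.0139). In co-culture Herpud1 was at 798.1, 578.8, 1889 and 4149 CPM, against 332.5 to 625.1 CPM in vehicle (1.82 ± 0.51, adjusted p = 0.0324). Plate 7 was highest each time.

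Hspa5 in co-culture was at 33.3, 17.5, 126.1 and 374.9 CPM with phenobarbital on day 1, against 21.5 to 46.1 CPM in vehicle, and missed the threshold with edgeR but was called with the block and by DESeq2 (2.05 ± 0.67, adjusted p = 0.0748, block 0.0242, DESeq2 0.0183). Of all probes, 1.37% were called higher in co-culture and 1.93% in monoculture, beside 1 and 2 of 7 members. Xbp1 missed the threshold without the block, and its changes were not compared between compounds. It was at 67.9, 77.3, 68.5 and 87.8 CPM in co-culture, against 43.5, 46.0, 45.7 and 27.8 CPM in vehicle, without overlap and with little spread (0.91 ± 0.33, adjusted p = 0.111, block 0.0304). Monoculture had 64.9 to 117.2 CPM, against 34.6 to 67.6 CPM in vehicle (0.82 ± 0.33, adjusted p = 0.149, block 0.0628).

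On day 3 the phenobarbital groups held 3 libraries, on plates 1, 5 and 7. In monoculture Hspa5 was at 163.6, 179.4 and 153.4 CPM, against 13.2 to 23.3 CPM in vehicle, so that all 3 libraries were alike and far from vehicle (3.12 ± 0.81, adjusted p = 0.0168). In co-culture it was at 66.0, 198.6 and 41.7 CPM, against 14.9 to 27.6 CPM in vehicle, also without overlap (2.27 ± 0.79, adjusted p = 0.084, block 0.0153). Hyou1 in co-culture was at 220.0, 105.1 and 96.0 CPM, against 12.1 to 26.1 CPM in vehicle (2.90 ± 0.63, adjusted p = 0.00513). Vehicle was lowest on day 3 for Hyou1, with 73.9 to 149.1 CPM on day 1 and 73.9 to 152.7 CPM on day 7 in co-culture. The treated libraries at 105.1 and 96.0 CPM lay within those ranges. Of all probes, 1.39% were called higher in co-culture and 0.722% in monoculture, beside 1 of 7 members in each. With the block 5 of 7 were called in co-culture, Hspa5, Hyou1, Herpud1, Creld2 and Xbp1, and 3 of 7 in monoculture, Hspa5, Herpud1 and Creld2. The block also calls more of all probes: over all tests at the highest doses it called 1.97% higher, against 0.689% without it. These 2 shares are pooled over all compounds, days and cultures and are not those of phenobarbital on day 3.

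On day 7 Hspa5 was the single member called. Monoculture wells had 33.4, 184.3, 19.2 and 85.2 CPM with phenobarbital, against 9.42, 9.98, 8.63 and 13.3 CPM in vehicle, without overlap (3.01 ± 0.69, adjusted p = 0.0129). In co-culture it was at 15.02, 208.8, 31.1 and 108.4 CPM, against 8.52 to 20.5 CPM in vehicle (2.89 ± 0.68, adjusted p = 0.0589, block 0.0153). Plates 3 and 7 were the high ones in both cultures. Of all probes, 0.0219% were called higher in co-culture and 0.445% in monoculture.

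Phenobarbital at 10 mM left Calr and Hsp90b1 uncalled throughout. Calr changed by -0.33 to 0.55 and Hsp90b1 by 0.11 to 1.11 over the 6 comparisons, and neither was called with the block. Of the 6 calls with phenobarbital, 0 remained without plate 5 or without plate 7. The Hspa5 change in monoculture was 1.28 on day 1 without plate 7 (adjusted p = 0.474) and 2.19 on day 7 without plate 3 (adjusted p = 0.568). The median change of the 7 genes was 0.54, 1.18 and 0.30 on days 1, 3 and 7 in co-culture, beside 0.09, 0.34 and -0.01 over all probes, and 0.82, 1.32 and 0.45 in monoculture, beside 0.09, 0.00 and 0.02.

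With 30 µM ketoconazole, Hspa5 was the 1 member called by edgeR, with or without the block, and DESeq2 also called Creld2 in monoculture on day 7 (adjusted p = 0.0289). On day 1 Hspa5 was at 93.9, 46.1, 73.2 and 72.4 CPM in monoculture, above all vehicle libraries (12.4 to 37.6 CPM), and was called with the block (1.45 ± 0.66, adjusted p = 0.172, block 0.048). In co-culture it was at 143.2, 35.9, 74.4 and 115.1 CPM, against 21.5 to 46.1 CPM in vehicle (1.46 ± 0.66, adjusted p = 0.242, block 0.128). Herpud1 was at 571.5, 585.8, 155.9 and 622.2 CPM in monoculture, against 380.0 to 565.6 CPM in vehicle (0.02 ± 0.50). Its fitted change rests on plate 5, at 155.9 CPM, since the other treated libraries lay above all vehicle libraries. On plate 5 the median fold of the 7 genes over vehicle was 0.410. Of all probes, 1.5% were called higher in co-culture and 3.73% in monoculture on day 1, beside 0 of 7 members in each.

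The 1 call with ketoconazole, Hspa5 in monoculture on day 7, rested on a shallow library. It was at 110.3, 27.7, 28.7 and 21.0 CPM, against 8.63 to 13.3 CPM in vehicle, without overlap (2.14 ± 0.68, adjusted p = 0.0462). The first of these libraries, on plate 1, has 412414 counts, 58 of them for Hspa5, and it was also the highest for Herpud1 (3223 CPM), Hsp90b1 (2504 CPM) and Creld2 (435.4 CPM). Without plate 1 the change was 1.30 (adjusted p = 0.236). Of all probes 1.67% were called higher there. On day 3 and, in co-culture, on day 7 no member was called, where 0.0223%, 0.0446% and 0% of all probes were called higher in co-culture on day 3, monoculture on day 3 and co-culture on day 7. The fitted change of Xbp1 was below 0 in all 6 groups, at -1.10 to -0.08 on the log2 scale, with unadjusted p of 0.0405 in co-culture on day 3 and 0.041 in monoculture on day 1, and none passed the adjustment.

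GW7647 called no member at any dose, with edgeR, with the block or with DESeq2, and 1 of 126 tests had an unadjusted p under 0.05. That was Herpud1 in monoculture on day 1 at 1 µM, at 811.0, 2064, 435.0 and 784.7 CPM, against 380.0 to 565.6 CPM in vehicle (1.09 ± 0.50, unadjusted p = 0.0328, adjusted p = 1). Of all probe tests at 1 µM, 0.0467% were called higher. Gemfibrozil and GW7647 were given at different doses and their responses are not compared.

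Below the highest doses no member was called. The 336 tests at the lowest and middle doses gave 0 calls with edgeR, with the block and with DESeq2, and 7 had an unadjusted p under 0.05. The changes ran from -1.51 to 2.05 with 149 above 0, and of all probe tests 0.00189% were called higher. The largest, Hspa5 with 10 µM ketoconazole in co-culture on day 7 (2.05 ± 0.67, adjusted p = 0.689), came with 1 library of 1355914 counts at 151.5 CPM. Single lower-dose libraries were high for several members, such as co-culture with 100 µM gemfibrozil on day 3, plate 3, at 102.8 CPM for Hspa5, 1535 CPM for Hsp90b1 and 3675 CPM for Herpud1. The highest vehicle library of that day had 27.6, 741.0 and 1220 CPM for these genes.

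**Figure D3:**
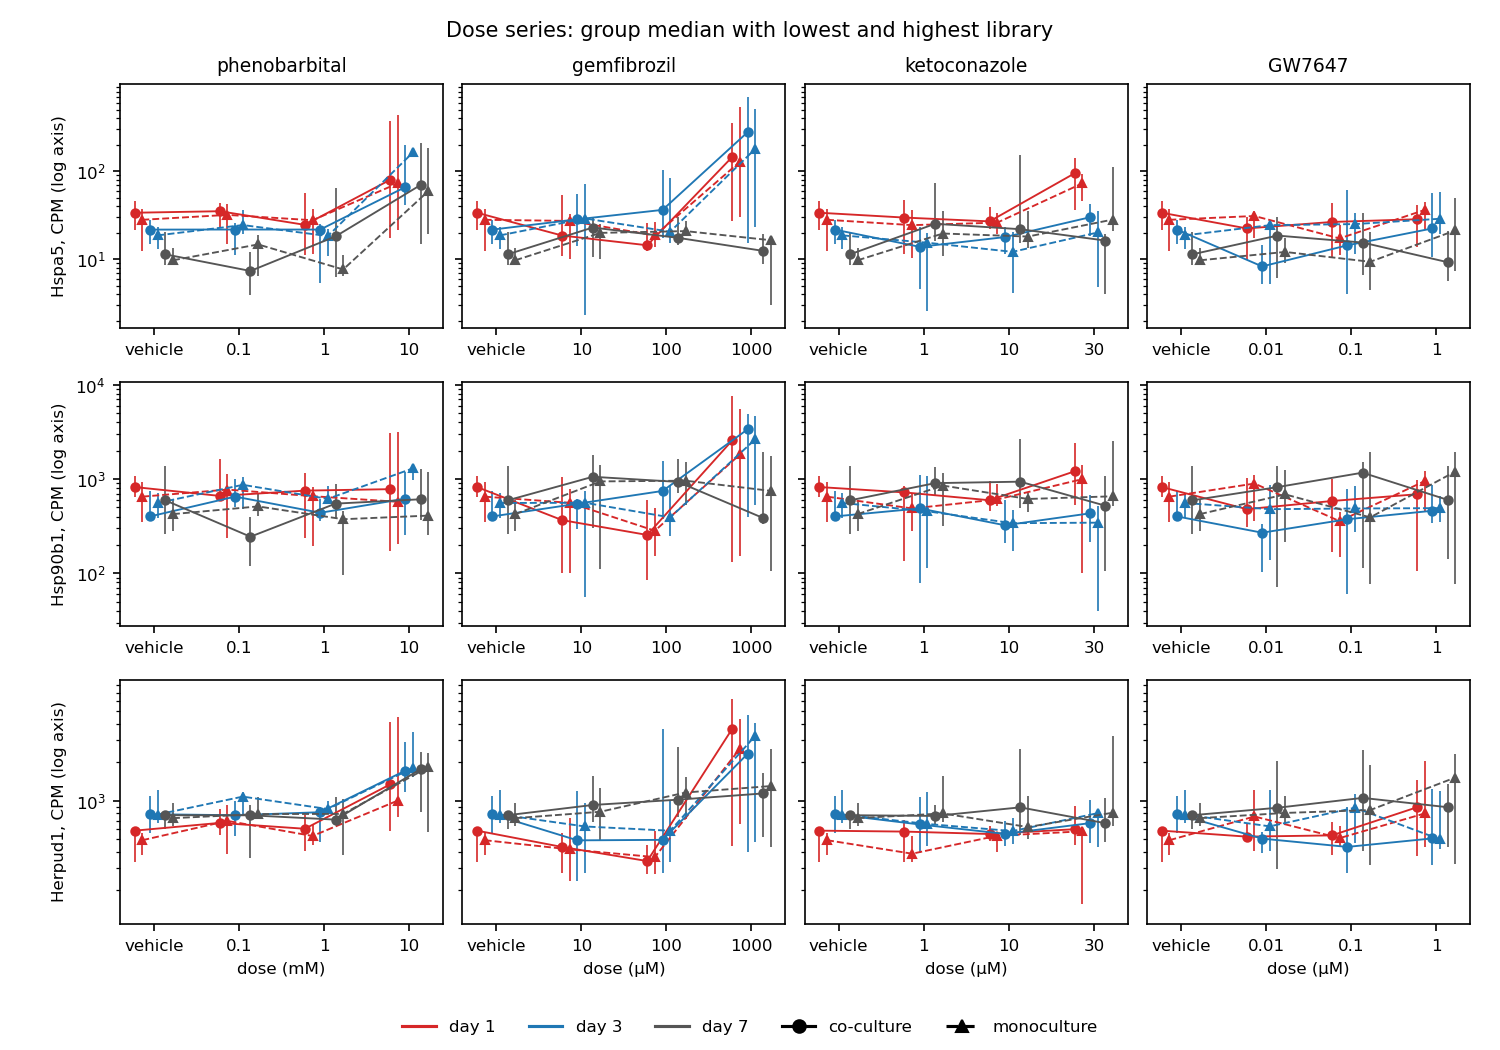
Dose series of Hspa5, Hsp90b1 and Herpud1 in CPM on a log axis for each compound, with the vehicle at the left of each panel; points are group medians, bars run from the lowest to the highest library, and colours mark days. The gemfibrozil medians of all 3 genes are highest at 1000 µM on days 1 and 3, and the phenobarbital medians of Hspa5 and Herpud1 are highest at 10 mM; circles are co-culture and triangles monoculture.

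The highest dose was also tested against the middle one. Of 168 tests of members 15 were called higher and 0 lower (30 and 0 with the block), beside 0.2% of all probe tests (0.769% with the block). Gemfibrozil gave 13 of them, and none in co-culture on day 3 (3 with the block). At 100 µM on day 1 the members lay below vehicle, with medians of -0.81 in co-culture and -0.80 in monoculture, beside 0.13 and 0.07 over all probes, which adds to the differences there. On day 1 Hspa5, Hsp90b1, Herpud1 and Hyou1 were higher at 1000 µM than at 100 µM in co-culture, by 2.91 to 3.47 on the log2 scale (adjusted p from 0.000147 to 0.0241). In monoculture on day 1 Hspa5, Herpud1, Creld2, Hyou1 and Calr were, by 1.58 to 3.45 (adjusted p from 0.00523 to 0.0264), and on day 3 Hsp90b1, Herpud1, Creld2 and Hyou1 were, by 1.96 to 2.60 (adjusted p from 0.008 to 0.0345). Phenobarbital gave 2, both Hspa5 in monoculture, with 2.57 ± 0.68 on day 1 (adjusted p = 0.0304) and 3.32 ± 0.70 on day 7 (adjusted p = 0.0134).

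In the order of all 78 groups by median, the highest doses took the top places. For Hspa5, 12 group medians lay above every vehicle library of any day, all at a highest dose. They were led by gemfibrozil on day 3 in co-culture (278.2 CPM) and monoculture (179.7 CPM) and by phenobarbital on day 3 in monoculture (163.6 CPM). The ranges of these 3 groups overlapped, as did those of gemfibrozil on day 1 at 145.8 and 128.4 CPM. For Herpud1 11 medians lay above every vehicle library, for Hsp90b1 4, and for Calr, Creld2, Hyou1 and Xbp1 3 each.

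The same plates were high in both cultures. Each treated library was set against the vehicle well of its own plate, day and culture, so each ratio rests on a single well of either kind. The share of all probes above 2-fold was not computed for either compound. The counts of members below therefore do not separate the members from the wells as a whole. With gemfibrozil on day 1, 6 of 7 members were more than 2-fold above vehicle in both cultures on plate 1 and 5 of 7 on plate 5, but 1 on plate 3 and 0 on plate 7. The median fold of the 7 genes in co-culture was 8.29 and 7.17 on plates 1 and 5, and 0.771 and 0.717 on plates 3 and 7. In monoculture it was 7.84 and 4.97 on plates 1 and 5, and 1.17 and 1.12 on plates 3 and 7. On day 3, 5 of 7 members were above 2-fold in both cultures on plate 1, 6 on plate 5 and 0 on plate 7.

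With phenobarbital plate 7 led on day 1 and, as with gemfibrozil, plate 5 on day 3. On day 1 no member was more than 2-fold above vehicle in both cultures on plates 1 and 3, 2 were on plate 5 and 4 on plate 7. On day 3, 2 were on plate 1, 6 on plate 5 and 0 on plate 7, and on day 7, 3 were on each of plates 3 and 7 and 0 on plates 1 and 5. Plate 7, the one with no such member for gemfibrozil on days 1 and 3, was thus the one with most for phenobarbital on day 1. What differs between plates is not given in the sources used here.

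**Figure D4:**
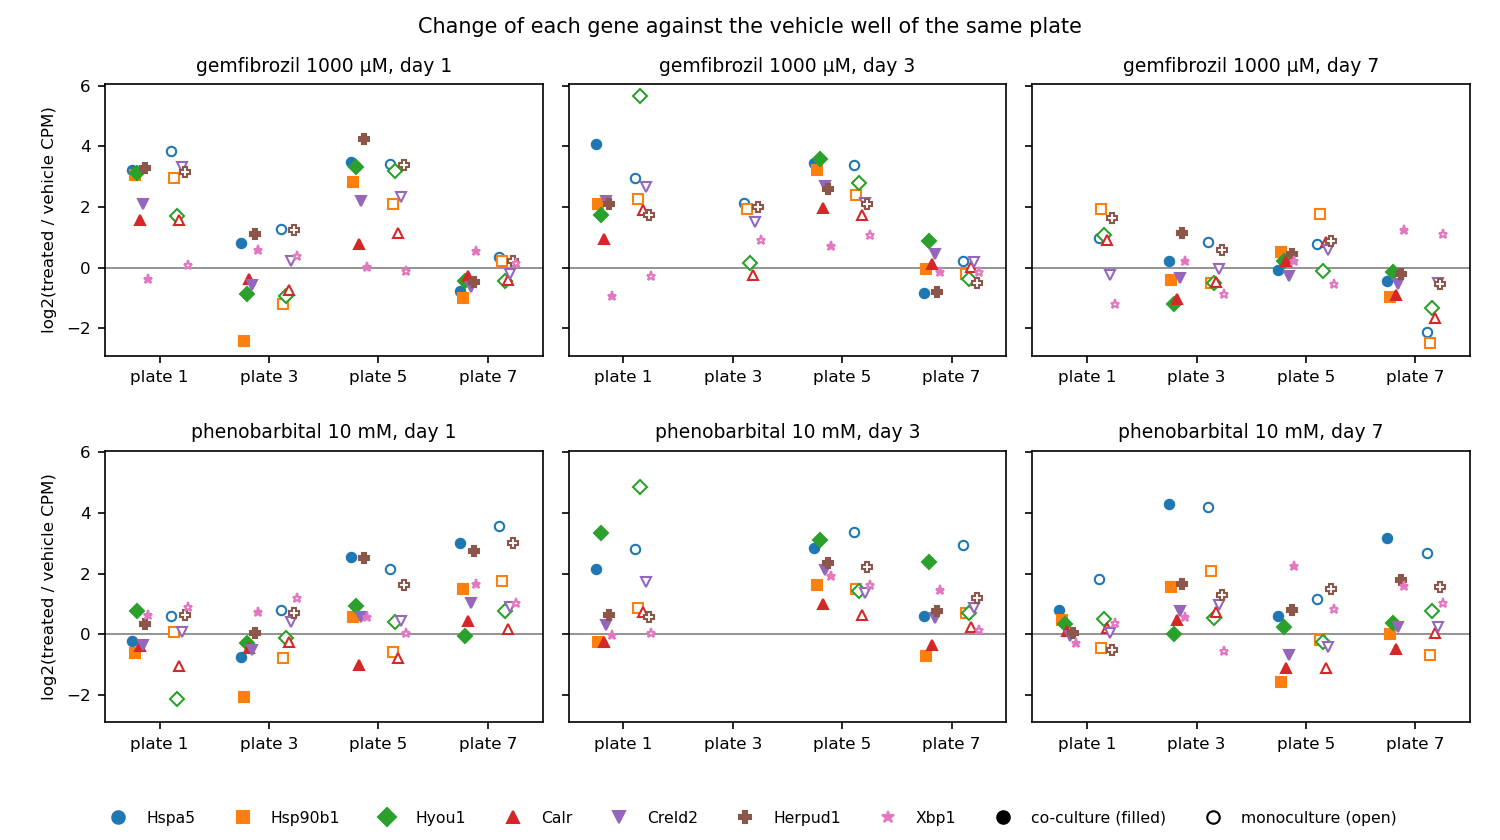
Log2 ratio of treated to vehicle CPM on the same plate, day and culture for each of the 7 genes, with gemfibrozil at 1000 µM above and phenobarbital at 10 mM below; filled symbols are co-culture and open symbols monoculture, and plates without both wells are empty. On day 1 gemfibrozil puts 6 and 5 of 7 genes above 2-fold in both cultures on plates 1 and 5, and phenobarbital puts 2 and 4 there on plates 5 and 7. The share of all probes above 2-fold was not computed.

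No member differed between co-culture and monoculture past the threshold. In vehicle 0 of 21 tests were called by edgeR or DESeq2, beside 0% of all probe tests by edgeR, and 1 had an unadjusted p under 0.05. That was Hyou1 on day 3, at 21.5, 26.1, 12.1 and 18.4 CPM in co-culture, against 3.67, 58.9, 54.2 and 70.1 CPM in monoculture (-1.27 ± 0.58, unadjusted p = 0.0312, adjusted p = 1), where the monoculture range spans that of co-culture. The difference between the responses of the cultures was called by edgeR or DESeq2 for 0 of 252 tests (by edgeR 0% of all probe tests were called higher and 0.000631% lower), and 6 had an unadjusted p under 0.05. The standard errors of such differences are wide, so this does not show that the cultures respond alike.

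Over the days in culture, Hspa5 fell in vehicle wells, and Hyou1 and Calr were lowest on day 3. Hspa5 in co-culture was at 21.5 to 46.1 CPM on day 1, 14.9 to 27.6 CPM on day 3 and 8.52 to 20.5 CPM on day 7. Day 7 was lower than day 1 by -1.33 ± 0.37 on the log2 scale in co-culture (adjusted p = 0.0121) and by -1.26 ± 0.37 in monoculture (adjusted p = 0.0175). Of all probes, 7.56% and 8.75% were called lower in these comparisons. The co-culture call was lost without plate 1, plate 3 or plate 7 (adjusted p up to 0.0926). The monoculture call was lost without plate 1, plate 5 or plate 7 (adjusted p up to 0.108). In monoculture the days overlapped, with the lowest library of day 1 at 12.4 CPM and the highest of day 7 at 13.3 CPM. Means were 12.9 ± 5.2 CPM on day 7 against 33.7 ± 10.8 CPM on day 1 in co-culture, and 10.3 ± 2.0 CPM against 26.5 ± 12.4 CPM in monoculture (SD, n = 4 each).

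Hyou1 in co-culture vehicle was at 73.9, 84.9, 89.6 and 149.1 CPM on day 1, at 21.5, 26.1, 12.1 and 18.4 CPM on day 3, and at 73.9, 136.9, 152.7 and 88.6 CPM on day 7. The day 3 libraries lay below all others, so Hyou1 was lower on day 3 than on day 1 (-2.26 ± 0.46, adjusted p = 0.00386) and higher on day 7 than on day 3 (2.50 ± 0.46, adjusted p = 0.00165). The second of these calls was kept without each plate in turn, and the first was lost without plate 5 or plate 7 (adjusted p up to 0.0723). In monoculture the day 3 libraries were at 3.67 to 70.1 CPM, against 82.3 to 119.1 CPM on day 1, and 73.6 to 113.6 CPM on day 7. No Hyou1 comparison was called there by edgeR, and day 7 against day 3 was called with the block and by DESeq2 (1.19 ± 0.44, adjusted p = 0.0647, block 0.0274, DESeq2 0.0178).

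Calr in co-culture vehicle was at 338.9 to 546.4 CPM on day 1, 184.0 to 309.2 CPM on day 3 and 315.3 to 614.6 CPM on day 7, without overlap of day 3 with the others. It was lower on day 3 than on day 1 (-0.82 ± 0.23, adjusted p = 0.0296) and higher on day 7 than on day 3 (0.91 ± 0.23, adjusted p = 0.0119). Both calls were lost without plate 3, plate 5 or plate 7 (adjusted p up to 0.199 and 0.0987). In monoculture Calr was at 207.8 to 260.3 CPM on day 3, against 358.3 to 478.7 CPM on day 1, a difference as large as in co-culture (-0.82 ± 0.23) that missed the threshold with edgeR (adjusted p = 0.0581) and was called with the block (0.0332) and by DESeq2 (0.00295). Herpud1 went the other way from Hspa5. It was higher on day 3 than on day 1 in monoculture with the block (0.92 ± 0.27, adjusted p = 0.0663, block 0.0281) and by DESeq2 (0.0266). In monoculture it was at 634.0 to 957.1 CPM on day 7, against 380.0 to 565.6 CPM on day 1 (0.77 ± 0.27, adjusted p = 0.0437), a call that was lost without any 1 plate (adjusted p up to 0.217).

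In all, 3 of 42 tests between days were called higher and 4 lower (5 and 5 with the block), beside 9.12% and 6.04% of all probe tests, so the members changed about as often as other probes. Xbp1, Creld2 and Hsp90b1 were not called between any days. Cell type markers moved over the same days: of 9 stellate and mesenchymal probes tested, 9 were higher on day 7 than on day 1 in each culture, and of 13 hepatocyte probes 6 in co-culture and 5 in monoculture were lower. The part of this shift in the changes of Hspa5 was not tested.

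**Figure D5:**
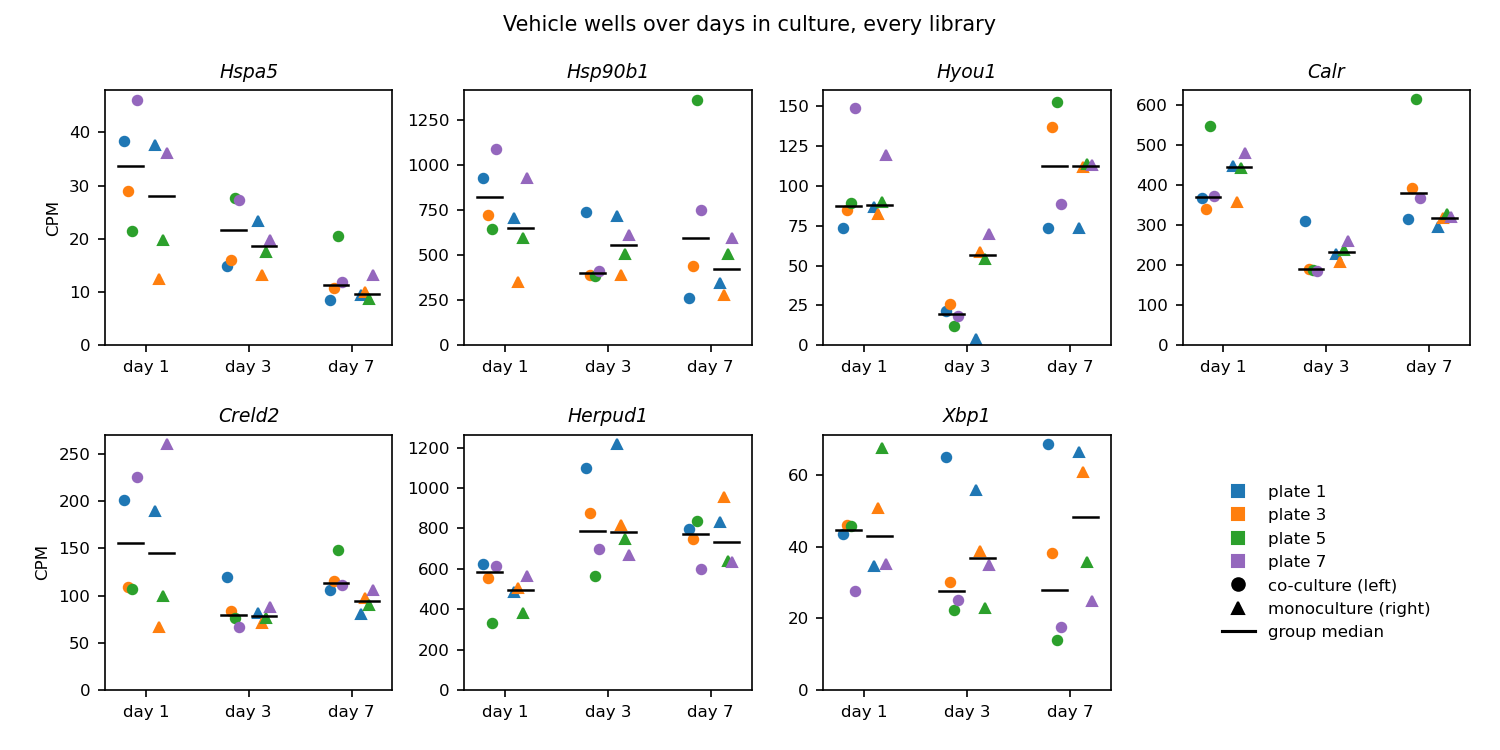
CPM of the 7 genes in every vehicle library on days 1, 3 and 7, coloured by plate, with circles for co-culture (left of each pair), triangles for monoculture and bars at medians; each panel starts at 0. Hspa5 falls over the days in both cultures, and the medians of Hyou1 and Calr are lowest on day 3.

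Genes of the neighbouring arm of the response, PERK and ATF4, rose at the same doses and also with ketoconazole. That list holds 16 genes, of which 14 have a probe and 17 probes were tested. With 1000 µM gemfibrozil 5 of 17 were higher on day 1 in each culture, beside 1.22% of all probes in co-culture and 1.62% in monoculture. On day 3, 2 were higher in co-culture and 4 in monoculture, beside 0.603% and 0.461%. Medians over both days were 1.26 to 1.45 on the log2 scale, beside 0.10 to 0.30 over all probes. With 10 mM phenobarbital 7 of 17 were higher on day 1 in each culture, 5 in co-culture and 4 in monoculture on day 3, and 1 and 4 on day 7. Of all probes, 1.37%, 1.39% and 0.0219% were higher on days 1, 3 and 7 in co-culture, and 1.93%, 0.722% and 0.445% in monoculture. The medians of the list were 0.95 to 1.43, beside -0.01 to 0.34 over all probes. With 30 µM ketoconazole 4 of 17 were higher on day 1 in each culture (medians 1.14 and 1.13, beside -0.02 and 0.10 over all probes), beside 1.5% and 3.73% of all probes. In monoculture on day 7, 1 was higher, beside 1.67% of all probes. In none of the comparisons named for this list was a probe of the 17 called lower. The lists were chosen with earlier results of these data known.

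Within that arm, Ddit3 (the stress transcription factor CHOP) was at 134.6 to 1565 CPM with gemfibrozil in co-culture on day 3, against 90.8 to 206.7 CPM in vehicle (3.03 ± 0.74, adjusted p = 0.0265). Trib3, a pseudokinase induced by CHOP, was at 221.7 to 500.2 CPM with ketoconazole in co-culture on day 1, against 76.3 to 102.0 CPM in vehicle (2.09 ± 0.47, adjusted p = 0.00397), where Herpud1 changed by 0.28 ± 0.50 (adjusted p = 0.863). Sesn2, a target of ATF4, was at 24.1 to 77.4 CPM with gemfibrozil in co-culture on day 1, against 5.71 to 12.9 CPM in vehicle, without overlap (2.40 ± 0.47, adjusted p = 0.00258). Slc7a11, the cystine transporter, was at 6.52 to 130.2 CPM with phenobarbital in co-culture on day 7, against 1.32 to 4.26 CPM in vehicle (4.79 ± 1.00, adjusted p = 0.0325).

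Single genes of degradation, folding and transport were also called, and counts are given for the degradation list alone. Of 19 probes of ER-associated degradation, 2 were higher with gemfibrozil on day 1 in each culture and on day 3 in co-culture, and 1 on day 3 in monoculture, with none lower. Of all probes, 1.22% and 0.603% were called higher on days 1 and 3 in co-culture, and 1.62% and 0.461% in monoculture. Edem3, which trims mannose from misfolded glycoproteins, was at 134.7 to 773.6 CPM with gemfibrozil in co-culture on day 1, against 86.8 to 122.6 CPM in vehicle (2.11 ± 0.47, adjusted p = 0.00832). Syvn1, the ubiquitin ligase Hrd1, was higher on day 3 in co-culture (1.41 ± 0.35, adjusted p = 0.0308) and monoculture (1.29 ± 0.34, adjusted p = 0.0368), and Sel1l, its partner, on day 1 in monoculture (1.80 ± 0.42, adjusted p = 0.00972). Both probes of Dnajc3, a co-chaperone of BiP, were higher in co-culture on day 3, by 1.95 ± 0.43 and 2.94 ± 0.69 (adjusted p = 0.0127 and 0.02). Sec23b, a coat protein of vesicles that leave the ER, was higher with gemfibrozil on day 1 in co-culture (1.01 ± 0.25, adjusted p = 0.0184) and monoculture (1.15 ± 0.25, adjusted p = 0.00625). Dnajc3 and Sec23b were named for their small p within the co-chaperone and transport lists and do not describe those lists. The lists of disulfide isomerases and of ER translocation are not described here.

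Of the 9 sensor probes, 1 at most was called in any group at a highest dose, where 0.689% of all probe tests were called higher. Ern1, which encodes IRE1, was at 64.9 to 182.7 CPM with phenobarbital in co-culture on day 3, against 0 to 5.97 CPM in vehicle (5.17 ± 1.17, adjusted p = 0.00604), the 1 of 9 sensor probes called there. Creb3l3, a liver transcription factor of the ATF6 kind, was higher with 1 µM GW7647 in monoculture on day 1, at 72.5 to 116.2 CPM, against 10.3 to 22.1 CPM in vehicle (2.52 ± 0.57, adjusted p = 0.0265). Mbtps1, the protease that cuts ATF6, was lower with gemfibrozil in co-culture on day 3, at 25.1 to 75.6 CPM, against 74.5 to 146.4 CPM in vehicle (-1.18 ± 0.31, adjusted p = 0.0415). Cytosolic heat shock chaperones, which answer to another stress pathway, gave 1 call over the highest doses, where 0.689% of all probe tests were called higher. It was Hspa1a with phenobarbital in co-culture on day 1 (3.26 ± 0.83, adjusted p = 0.0157). There 1 library had 448.6 CPM and the lowest 3.25 CPM, against 7.04 to 18.4 CPM in vehicle. The number of tests of this list is not given here, so its call is not compared with those of the ER genes.

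Sums of cell type markers differed at the same doses in some groups. The 13 hepatocyte probes, among them Alb and Ttr, were detected in every group, and their summed level on day 1 in co-culture was 22353 to 32233 CPM with 1000 µM gemfibrozil and 19386 to 51865 CPM with 10 mM phenobarbital, against 48952 to 93456 CPM in vehicle. The 13 stellate and mesenchymal probes summed to 34.7 to 79.3 CPM with gemfibrozil and 33.6 to 45.6 CPM with phenobarbital, against 86.0 to 321.6 CPM in vehicle. Of these, 5 were at 0 with gemfibrozil (Des, Col1a1, Postn, Lum and Thy1), 5 with phenobarbital and 4 in vehicle. The 9 plasma and B cell probes, from cells rich in these chaperones, summed to 2.08 to 3.86 CPM with gemfibrozil and 1.30 to 31.6 CPM with phenobarbital, against 1.08 to 1.90 CPM in vehicle. Of these, Ms4a1 was at 0 in all 3 groups. In monoculture on day 1 the hepatocyte sum was 18803 to 81082 CPM with gemfibrozil and 16808 to 82636 CPM with phenobarbital, ranges that span that of vehicle (39987 to 58213 CPM). The stellate sum there was 36.8 to 79.4 CPM with gemfibrozil and 18.1 to 30.6 CPM with phenobarbital, against 76.4 to 390.0 CPM in vehicle, which overlapped gemfibrozil. The part of the marker changes in the rise of the chaperones was not tested.

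Across the 72 treated groups, the changes of the members were alike to differing degrees, and least so for Xbp1. Pearson's r of log2 changes, which share vehicle libraries and depth and are given as a description, was 0.86 between Hspa5 and Creld2, 0.82 between Hsp90b1 and Creld2 and 0.78 between Hspa5 and Hsp90b1. It was 0.73 between Hspa5 and Herpud1, 0.52 between Hspa5 and Hyou1, 0.43 between Calr and Herpud1 and 0.39 between Hyou1 and Herpud1, and Xbp1 had -0.28 to 0.22 with the other 6. Of all probes, Bet1 (0.88), Ddit3 (0.87) and Gosr2 (0.87) were among the 5 most like Hspa5, Ppp1r15a (0.82) and Ube2g2 (0.79) most like Herpud1, and Pdrg1 (0.86) and Mcfd2 (0.85) most like Hsp90b1. Nucb2 (0.84) and Canx (0.75), which encodes the membrane sister of calreticulin, were among the 5 most like Calr, Dnajc3 (0.78) and Syvn1 (0.78) most like Hyou1, Gfer (0.83) was among those most like Creld2, and Ero1b (0.70), an ER oxidase, among those most like Xbp1.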

How the data were processed

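TempO-Seq measured probe counts in 311 libraries. The deposited counts per probe were made by BioSpyder per the labels, and Bowtie is named in the submitters' processing notes, with no version or build given in the sources used here. Each library was mapped to its group by its description, and the number read as its plate was taken as the replicate. The members and the gene lists were chosen with earlier results of these data known. All 7 members with a row were described. From each pathway list the 2 genes with the smallest p in each direction at a highest dose or between days 7 and 1 in vehicle could be named, and for likeness the 5 probes of highest r.

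The counts were fitted with edgeR 4.0.16 (R 4.3.3, limma 3.58.1): filterByExpr with a minimum count of 10, TMM scaling and the quasi-likelihood test, two-sided. One fit per day over all 26 groups tested 12504, 13439 and 13707 probes on days 1, 3 and 7, and a fit of the 24 vehicle libraries tested 11823. p-values were adjusted by Benjamini-Hochberg over all probes of a comparison, with a threshold of 0.05. CPM were TMM-scaled over all libraries. Correlations used log2 CPM with a prior count of 2. Alternatives were DESeq2 1.42.0, its size factors, no filter, plate as a block, leaving out each plate, and leaving out libraries under 1000000 counts. Tables and figures used Python 3.11.15, pandas 2.3.3, numpy 2.4.6 and matplotlib 3.10.9. The scripts were tested on simulated data.

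Totals of 412414 to 12272575 counts set the precision, and counting error is the smaller part of the spread. The lowest chi-square per degree of freedom between 2 libraries of a group was 17.2, so none was a duplicate. Plates, as read from the names, pair samples. Residuals of libraries on the same plate had a mean correlation of 0.209, 0.174 and 0.269 on days 1, 3 and 7, against -0.0691, -0.0468 and -0.0890 between plates. Of same-plate pairs, 71.2%, 64.1% and 72.5% were over 0.1. Results of the plate block are given where they change a call.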

Additional observations from a re-analysis of the deposited data

Results flagged for a closer look

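In the vehicle and highest-dose groups of 4 or 5 libraries, 18 of 189 tests of a member's lowest or highest library found it far from the others by Dixon's criterion (9.52%). The criterion is set to 5% for normal values in independent tests. CPM need not be normal and these tests share libraries, so 9.52% is not read as an excess.

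A monoculture library with 30 µM ketoconazole on day 7, plate 1, which has 412414 counts, accounted for 4 of these. In it Hspa5 was at 110.3 CPM (the others 21.0 to 28.7), Herpud1 at 3223 CPM (631.1 to 836.1), Hsp90b1 at 2504 CPM (513.9 to 714.0) and Creld2 at 435.4 CPM (97.99 to 109.9).

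Phenobarbital at 10 mM on day 1 accounted for another 4. In monoculture on plate 7 Hspa5 was at 432.9 CPM (21.6 to 87.8) and Herpud1 at 4542 CPM (747.0 to 1185). In co-culture on plate 7 Calr was at 505.0 CPM (248.8 to 284.4). In monoculture on plate 3 Xbp1 was at 117.2 CPM (64.9 to 72.3).

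Single ketoconazole libraries at 30 µM were low. Herpud1 in monoculture on plate 5 was at 155.9 CPM on day 1 (571.5 to 622.2) and at 438.1 CPM on day 3 (793.3 to 828.2). Xbp1 in monoculture on day 1, plate 3, was at 14.9 CPM (32.6 to 34.4), and Hyou1 in co-culture on day 3, plate 3, was at 15.9 CPM (36.01 to 39.4). With 1 µM GW7647 in co-culture on day 3, Calr was at 669.7 CPM on plate 9 (161.9 to 261.6).

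Vehicle libraries gave 5. In co-culture Calr was at 546.4 CPM on day 1, plate 5 (338.9 to 372.6), and at 309.2 CPM on day 3, plate 1 (184.0 to 189.6). On that same plate Hsp90b1 was at 741.0 CPM on day 3 (381.2 to 411.8). Xbp1 in co-culture on day 1 was at 27.8 CPM on plate 7 (43.5 to 46.0), and Hyou1 in monoculture on day 7 at 73.6 CPM on plate 1 (112.0 to 113.6).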

How the results depend on the processing

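No member call changed direction under any alternative. Against the main counts of calls (phenobarbital 6, ketoconazole 1, gemfibrozil 12, highest against middle dose 15, between days in vehicle 7), DESeq2 gave 11, 2, 18, 25 and 11, and plate as a replicate block gave 15, 2, 18, 30 and 10. All main calls were among those of the block and of DESeq2. With no filter on low counts 6 of 26 calls against vehicle or between days missed the threshold: Hspa5 in co-culture on day 1, Calr in co-culture and Hyou1 in monoculture on day 3 with gemfibrozil, Hspa5 with ketoconazole, and, between days, Calr of co-culture (day 3 against 1) and Herpud1 of monoculture. Ketoconazole thus had 0 calls with no filter and 0 without libraries under 1000000 counts. Leaving out each plate in turn gave 0 to 7 calls for phenobarbital, 0 to 1 for ketoconazole, 0 to 17 for gemfibrozil, 0 to 19 for the highest against the middle dose and 1 to 4 between days. The 0 calls for GW7647, between cultures and for differences of response between cultures or days stayed at 0 under each alternative run. With 3 to 5 libraries a group and folds that differ several times between plates, changes of a size seen in single libraries could miss the threshold. The cause of the differences between settings was not tested.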
